A study of Mus musculus with 33 samples.

Results

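The genes described here encode 10 proteins that coat lipid droplets, release lipid from them, or bring cholesterol and fatty acids into the cell: the perilipins Plin1, Plin2, Plin3, Plin4 and Plin5, the lipases Lipe and Pnpla2, the lipoprotein receptor Scarb1, the cholesterol-esterifying enzyme Soat1 and the fatty acid receptor Cd36. They were chosen by gene symbol. Each of the 10 was found once among the 54347 gene identifiers of the count table, and all 10 passed the filter on low counts in every experiment.

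RNA of mouse ovary was sequenced in 33 libraries, which fall into 9 groups and 3 experiments. The study compared ovaries with and without Fshb, which encodes the specific subunit of follicle-stimulating hormone (FSH), and ovaries taken at different estrous stages. Experiment 1 has 3 libraries each of the genotypes WT, Fshb(+/-) and Fshb(-/-). Experiment 2 has 4 libraries of Fshb(-/-) ovaries and 4 labelled Fshb(-/-) HFSHB, in which an FSHB transgene was placed on the mutant background and which are called the rescue. The promoter of that transgene is not given in the sources used here. Experiment 3 has 4 libraries of WT mice at each of 3 estrous stages, labelled DE, PE and E. It also has 4 libraries with the stage label KO (anestrus) and the genotype label WT, which are called the libraries labelled KO (anestrus). No age or stage is given for experiments 1 and 2, and nothing in the labels says that the libraries of a group were separate animals. The p-values therefore rest on the spread among libraries, and that spread may be technical.

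Total counts per library ran from 13587139 to 16931584 in experiment 1, from 19633234 to 23700028 in experiment 2 and from 10085324 to 15925070 in experiment 3. Fshb itself was not lower in the Fshb(-/-) libraries of experiment 1 than in the WT ones. It had 0 to 1 counts in WT, 43 to 106 in Fshb(+/-) and 68 to 82 in Fshb(-/-). It had 119 to 184 counts in the Fshb(-/-) libraries of experiment 2 and 221 to 431 in the rescue. In experiment 3 it had 90 to 114 counts in the libraries labelled KO (anestrus), 60 to 198 at DE, 0 to 51 at PE and 0 to 170 at E. Counts alone do not show whether these reads come from an intact gene, so the groups are named here by their labels only. Markers of ovarian cells were present throughout: 10 granulosa markers summed to between 2515 and 8601 CPM (counts scaled to a library total of 1000000) and 10 oocyte markers to between 124 and 1006 CPM. Several libraries stand apart within their group. The 9 luteal markers summed to 3382 CPM in WT replicate 3 against 11840 and 12337 CPM in the other WT libraries of experiment 1, and to 16736 and 19696 CPM in rescue replicates 3 and 4 against 6383 and 7706 CPM in rescue replicates 1 and 2. Fshb(+/-) replicate 3 had a luteal sum of 17247 CPM against 7549 and 8209 CPM. The 10 markers of oviduct epithelium, a tissue next to the ovary, summed to 3279 to 5748 CPM in the PE libraries and 3416 to 7637 CPM in DE replicates 1, 2 and 4, but to 10.1 CPM in DE replicate 3. At E they summed to 4820 CPM in replicate 3 and to 5.88 to 9.75 CPM in the other libraries. In experiments 1 and 2 they reached 1584 CPM in Fshb(+/-) replicate 3, 594 CPM in rescue replicate 2 and 424 and 137 CPM in Fshb(-/-) replicates 3 and 4 of experiment 2, and were at or below 57.6 CPM in the other libraries. DE replicate 3 and E replicate 3 therefore differ from the other libraries of their stage, and results that change without them are given both ways.

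Lipid droplets store cholesteryl esters and triglycerides under a coat of perilipins, which control the access of lipases. Steroid-making cells of the ovary draw on cholesteryl esters in droplets and on cholesterol taken from circulating high-density lipoprotein by Scarb1 for hormone synthesis. Luteal cells, which make progesterone, are known for their droplets, and fat cells carry the same machinery in large amounts. In bulk tissue, fewer cells of a type and less RNA per cell cannot be told apart.

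Transcripts of Plin4 and Plin5 were the most variable of the 10, and both were low in every group labelled Fshb(-/-) or KO (anestrus). Plin4 encodes a perilipin that associates with droplets in adipocytes and muscle, and Plin5 one that links droplets to mitochondria in tissues that burn fat. Both lie on the minus strand of chromosome 17 (GRCm38), Plin4 at 56100591 to 56109803 and Plin5 at 56111601 to 56117596, with 1797 bases between them. Plin3 lies on the same strand at 56277476 to 56292873 and barely varied. The 250 bases before the annotated start of each are shown because Plin4 and Plin5 are neighbours that varied alike and Plin3 varied least (RefSeq, GRCm38.p6). Capitals mark TATAA between 40 and 20 bases before the start on the transcribed strand, and AGGTCA, the core bound by many nuclear receptors, on either strand.
Plin4 (chr17:56109783-56110032, minus strand): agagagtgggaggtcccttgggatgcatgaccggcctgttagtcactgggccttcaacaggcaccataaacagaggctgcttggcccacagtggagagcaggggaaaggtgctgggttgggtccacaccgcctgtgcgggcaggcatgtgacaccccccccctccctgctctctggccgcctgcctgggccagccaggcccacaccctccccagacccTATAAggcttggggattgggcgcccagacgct
Plin5 (chr17:56117549-56117798, minus strand): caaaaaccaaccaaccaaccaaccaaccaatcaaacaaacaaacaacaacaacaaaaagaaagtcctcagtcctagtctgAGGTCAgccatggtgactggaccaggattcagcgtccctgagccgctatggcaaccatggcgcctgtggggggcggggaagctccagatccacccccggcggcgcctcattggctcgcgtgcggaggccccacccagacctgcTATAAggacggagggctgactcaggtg
Plin3 (chr17:56290512-56290761, minus strand): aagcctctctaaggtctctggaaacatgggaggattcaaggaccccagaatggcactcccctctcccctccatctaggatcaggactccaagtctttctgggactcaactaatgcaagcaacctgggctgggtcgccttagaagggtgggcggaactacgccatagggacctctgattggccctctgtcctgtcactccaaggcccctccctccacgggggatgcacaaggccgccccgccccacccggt
TATAA stands 32 bases before the start of Plin4 and 27 before that of Plin5, and it is not in this stretch of the Plin3 window. The motif and its range were chosen after these sequences were read. It is found in 3.52% of 32851 promoter windows. AGGTCA, found in 16.3% of all windows on either strand, stands 170 bases before the start of Plin5. It is also found in the Plin2 and Cd36 windows, there on the strand opposite to transcription, and in a second Plin5 window. The longer motifs CAAGGTCA (bound by NR5A receptors; 1.56% of windows), the DR1 element (AGGTCA repeated after 1 base, bound by PPAR and RXR; 0.0396%) and TGACGTCA (bound by CREB; 1.79%) were searched on both strands from 250 bases before to 50 after the start, and none was found in the 11 windows of the 9 members that have one. The first 2 of these motifs contain AGGTCA. A match describes letters and shows no binding.

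Plin4 (ENSMUSG00000002831) was at 121, 416 and 22.7 CPM in the 3 WT libraries of experiment 1, at 152, 563 and 179 CPM in the Fshb(+/-) libraries and at 10.7, 6.96 and 9.53 CPM in the Fshb(-/-) libraries. The WT libraries differed widely among themselves, and still none of them overlapped the Fshb(-/-) group. The mean was 9.07 ± 1.92 CPM in Fshb(-/-) against 187 ± 205 CPM in WT (SD, n = 3 each), 20.5-fold lower on the fitted scale. The log2 difference was -4.36 ± 1.06 (SE), with an adjusted p of 0.047 by the quasi-likelihood test of edgeR, the test used throughout. That call was lost without any 1 of 5 of the 6 libraries, WT replicate 3 being the exception, and the log2 fold change ranged from -4.88 to -2.98 over these fits. Against Fshb(+/-) the log2 fold change was -5.03 ± 1.09 (edgeR, adjusted p = 0.020). This call ended without any 1 of the 3 Fshb(-/-) libraries (highest adjusted p = 0.071).

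In experiment 2, Plin4 was at 9.51, 13.8, 8.67 and 8.24 CPM in the Fshb(-/-) libraries and at 86.7, 138, 154 and 162 CPM in the rescue. The groups did not overlap, and the lowest rescue library was above the highest Fshb(-/-) library by a wide margin. The mean rose 13.4-fold, from 10.1 ± 2.55 to 135 ± 33.9 CPM (SD, n = 4 each). The difference of 3.75 ± 0.26 on the log2 scale (edgeR, adjusted p = 6.2e-05) held without each library in turn. In experiment 3, it was at 4.91, 32.9, 8.17 and 9.68 CPM in the libraries labelled KO (anestrus), at 208, 117, 309 and 198 CPM at DE, at 54.3, 112, 138 and 161 CPM at PE, and at 529, 809, 48.2 and 130 CPM at E. All 12 libraries of the stages were above all 4 labelled KO (anestrus). The log2 fold changes were 3.89 ± 0.82 at DE (edgeR, adjusted p = 0.0054), 3.05 ± 0.79 at PE (adjusted p = 0.011) and 4.76 ± 0.85 at E (adjusted p = 0.0019). These 3 comparisons share the same 4 libraries labelled KO (anestrus), and each call held without each library in turn.

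Plin5 (ENSMUSG00000011305) was scarce, reaching at most 62 CPM in any library. In experiment 1 it was at 5.21, 6.98 and 0.416 CPM in WT, at 26.1, 9.52 and 17.0 CPM in Fshb(+/-) and at 0.545, 1.1 and 0.983 CPM in Fshb(-/-), where its counts were 9, 15 and 16. WT replicate 3, the library with few luteal transcripts, had 7 counts and lay below the Fshb(-/-) libraries. Against WT the log2 fold change in Fshb(-/-) was -2.26 ± 0.86 and did not pass (edgeR, adjusted p = 0.15; 0.021 by DESeq2), and without WT replicate 3 it passed (adjusted p = 0.014). Against Fshb(+/-) Plin5 fell by 4.32 ± 0.89 on the log2 scale (adjusted p = 0.015), a call lost without Fshb(-/-) replicate 1 or 3.

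In experiment 2, Plin5 was at 1.42, 1.20, 1.68 and 1.29 CPM in Fshb(-/-) and at 2.28, 4.42, 18.0 and 23.4 CPM in the rescue. The groups did not overlap, but rescue replicates 3 and 4 were well above replicates 1 and 2, in the same order as their luteal sums. The log2 fold change was 3.10 ± 0.74 (edgeR, adjusted p = 0.017), lost without Fshb(-/-) replicate 2 or 4 (highest adjusted p = 0.055). In experiment 3, it was at 1.28, 1.35, 1.92 and 0.372 CPM in the libraries labelled KO (anestrus), at 10.5, 5.74, 12.4 and 3.63 CPM at DE, at 3.67, 25.1, 3.69 and 4.55 CPM at PE, and at 62, 32.9, 16.8 and 14.6 CPM at E. No stage overlapped the libraries labelled KO (anestrus), and the 4 E libraries were all above the 4 DE libraries. Plin5 was higher than in the libraries labelled KO (anestrus) by 2.69 ± 0.76 at DE (edgeR, adjusted p = 0.021), 2.89 ± 0.76 at PE (adjusted p = 0.012) and 4.66 ± 0.80 at E (adjusted p = 0.0014) on the log2 scale. The DE call ended without replicate 1, 2 or 4 of the libraries labelled KO (anestrus) (highest adjusted p = 0.056). At PE the fold change dropped to 1.67 on the log2 scale without its highest library and still passed.

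Plin2, the perilipin of droplets in most cell types (chromosome 4, 86648386 to 86670060), moved less. Its SD ran from 4.33% to 26.9% of the group mean, below those of Plin4 and Plin5 in every group. In experiment 1 it was at 84.8, 96.3 and 132 CPM in WT, at 89.3, 115 and 87.6 CPM in Fshb(+/-) and at 53.3, 73.1 and 55.7 CPM in Fshb(-/-). The Fshb(-/-) libraries were below all others, with log2 fold changes of -0.78 ± 0.19 against WT (edgeR, adjusted p = 0.042) and -0.68 ± 0.19 against Fshb(+/-) (adjusted p = 0.041). The first call ended without any 1 of its 6 libraries and the other without any but Fshb(-/-) replicate 2 (highest adjusted p = 0.15 and 0.14). Experiment 2 had it at 65.6, 67.8, 58.9 and 59.8 CPM in Fshb(-/-) and at 140, 117, 112 and 96.9 CPM in the rescue. These groups did not overlap, and the log2 fold change of 0.88 ± 0.10 (edgeR, adjusted p = 0.0004) held without each library in turn.

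In experiment 3, Plin2 was at 75.9, 77.3, 66.7 and 74.6 CPM in the libraries labelled KO (anestrus), at 97.9, 97.4, 107 and 102 CPM at DE, at 119, 97.6, 108 and 173 CPM at PE and at 95.6, 95.7, 80.3 and 144 CPM at E. Every library of a stage was above every library labelled KO (anestrus). Only the PE difference passed, with a log2 fold change of 0.76 ± 0.18 (edgeR, adjusted p = 0.0065), while DE was at 0.46 ± 0.18 (adjusted p = 0.071; 0.049 by DESeq2) and E at 0.50 ± 0.18 (adjusted p = 0.065; 0.034 by DESeq2). Without E replicate 3 the E difference passed too (adjusted p = 0.025).

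Plin3, a perilipin made in most tissues that also cycles between cytosol and droplets, spanned 79.0 to 110 CPM over all 33 libraries, 1.39-fold from lowest to highest. Its group means ran from 86.1 ± 4.27 CPM in Fshb(-/-) of experiment 2 (SD, n = 4) to 102 ± 7.84 CPM in Fshb(-/-) of experiment 1 (SD, n = 3). Its log2 fold changes were 0.07 ± 0.09 in Fshb(-/-) against WT, 0.06 ± 0.08 in the rescue and 0.01 to 0.04 at the stages, and none passed (edgeR, lowest adjusted p = 0.61 among these 5).

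Plin1, the perilipin that guards droplets of fat cells (chromosome 7, 79720218 to 79732903), showed another pattern. It was at 35.5, 61.8 and 20.8 CPM in WT, at 10.3, 27.6 and 18.0 CPM in Fshb(+/-) and at 25.2, 37.8 and 31.0 CPM in Fshb(-/-) of experiment 1, with WT and Fshb(-/-) overlapping. In experiment 2 it was at 30.9, 28.9, 19.3 and 24.3 CPM in Fshb(-/-) and at 43.2, 35.3, 21.6 and 21.8 CPM in the rescue, again overlapping (log2 fold change 0.24 ± 0.26, edgeR, adjusted p = 0.52). In experiment 3 it was at 19.3, 39.1, 11.7 and 20.2 CPM in the libraries labelled KO (anestrus), at 21.4, 128, 39.7 and 100 CPM at DE, at 50.5, 38.2, 73.7 and 138 CPM at PE and at 11.1, 19.6, 24.6 and 41.3 CPM at E. The groups overlapped at every stage, although the DE and PE differences passed, at 1.68 ± 0.59 (adjusted p = 0.049) and 1.73 ± 0.59 (adjusted p = 0.036) on the log2 scale. Each of these 2 calls was lost without any 1 of 5 of its 8 libraries.

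**Figure D1:**
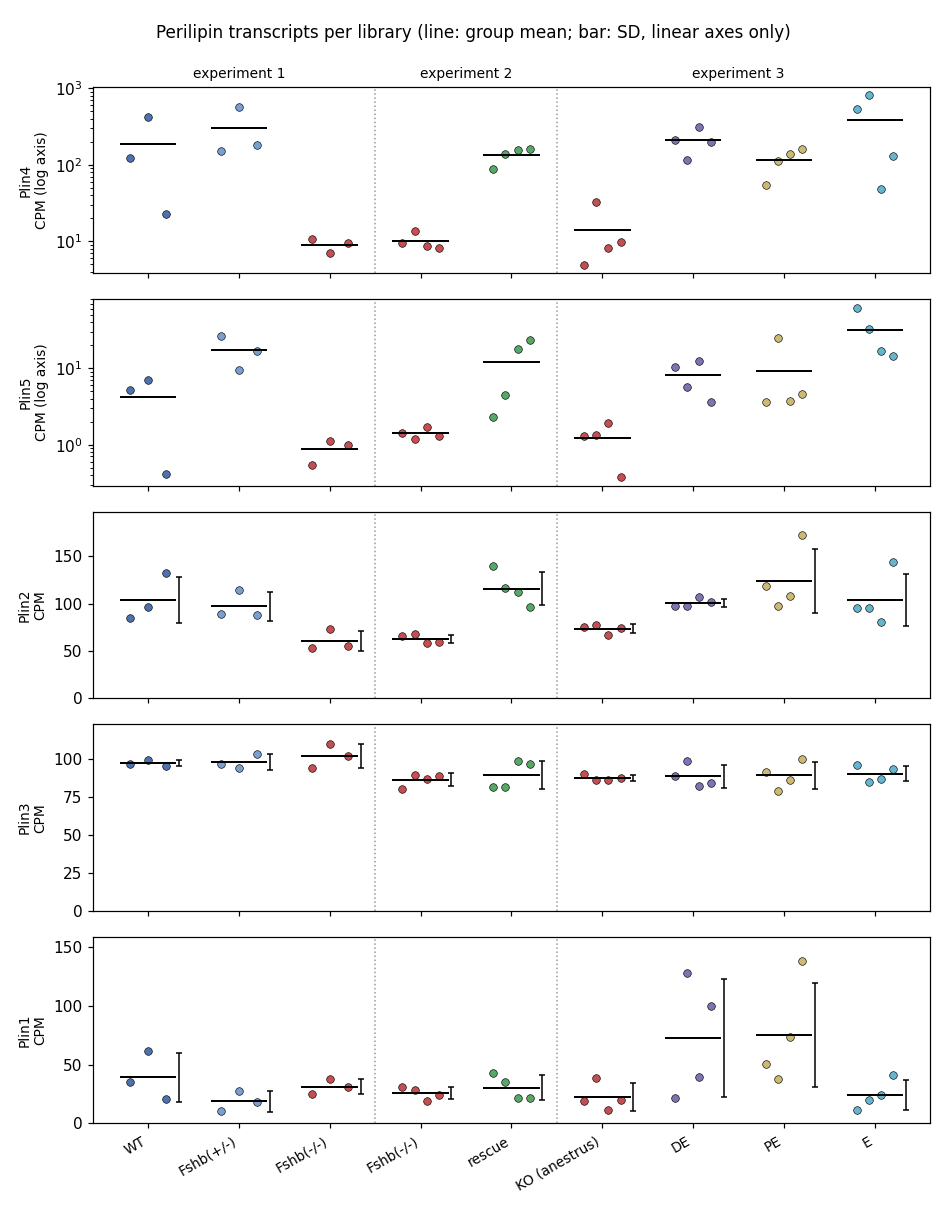
Level of each perilipin transcript (CPM, scaled within each experiment) in the 33 libraries, 1 point a library, with a line at the group mean and, on the linear axes, a bar of 1 SD. Plin4 and Plin5 (log axes) are low in all groups labelled Fshb(-/-) or KO (anestrus), except that WT replicate 3 has 0.416 CPM of Plin5, while Plin3 stays between 79.0 and 110 CPM.

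Scarb1, the receptor that takes cholesteryl esters from high-density lipoprotein (chromosome 5, 125277087 to 125341094), varied widely within the groups not labelled Fshb(-/-) or KO (anestrus). It was at 1866, 1123 and 690 CPM in WT, at 810, 996 and 2627 CPM in Fshb(+/-) and at 580, 685 and 627 CPM in Fshb(-/-) of experiment 1. No WT library overlapped the Fshb(-/-) group, but replicate 3 of WT was barely above it, and the log2 fold change of -0.96 ± 0.48 did not pass (edgeR, adjusted p = 0.26). In experiment 2 it was at 388, 306, 367 and 376 CPM in Fshb(-/-) and at 604, 708, 2179 and 2468 CPM in the rescue. The groups did not overlap, and the log2 fold change was 2.05 ± 0.50 (edgeR, adjusted p = 0.020). The highest values were those of rescue replicates 3 and 4, which also had the highest luteal sums. The call was lost without Fshb(-/-) replicate 2, 3 or 4 or rescue replicate 3 (highest adjusted p = 0.057).

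In experiment 3, Scarb1 was at 284, 390, 309 and 261 CPM in the libraries labelled KO (anestrus), at 482, 325, 757 and 390 CPM at DE, at 383, 503, 470 and 228 CPM at PE, and at 1187, 1507, 395 and 578 CPM at E. Only the E libraries were all above those labelled KO (anestrus), and the lowest of them, replicate 3, was so by a small margin. The E difference of 1.56 ± 0.39 on the log2 scale passed (edgeR, adjusted p = 0.014) and held without each library in turn. At DE (0.65 ± 0.38, adjusted p = 0.23) and PE (0.35 ± 0.38, adjusted p = 0.51) it did not pass.

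Soat1, which esterifies cholesterol for storage (chromosome 1, 156424525 to 156474331), passed in no comparison of all the libraries. It was at 1339, 789 and 781 CPM in WT, at 680, 706 and 1483 CPM in Fshb(+/-) and at 583, 719 and 633 CPM in Fshb(-/-) of experiment 1. The Fshb(-/-) libraries were below all WT libraries, by a log2 fold change of -0.59 ± 0.33 (edgeR, adjusted p = 0.30). Its levels in experiment 2 were 1127, 841, 701 and 729 CPM in Fshb(-/-) and 835, 826, 1440 and 1532 CPM in the rescue, so the groups overlapped (0.45 ± 0.26, adjusted p = 0.23). In experiment 3 its means were 672 ± 79.7 CPM in the libraries labelled KO (anestrus), 536 ± 196 CPM at DE, 661 ± 114 CPM at PE and 777 ± 140 CPM at E (SD, n = 4 each), with overlap throughout.

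Cd36, which binds long-chain fatty acids and oxidized lipoprotein (chromosome 5, 17781690 to 17888801), was at 62, 42.3 and 70.5 CPM in WT, at 32.7, 34.2 and 41.2 CPM in Fshb(+/-) and at 48.6, 50.6 and 43.5 CPM in Fshb(-/-). The Fshb(+/-) libraries were below both other groups, but neither difference passed (edgeR, log2 fold change -0.69 ± 0.18 against WT, adjusted p = 0.23, and 0.037 by DESeq2). In experiment 2 it was at 116, 110, 99.1 and 85.7 CPM in Fshb(-/-) and at 108, 77.5, 68.8 and 71.4 CPM in the rescue (log2 fold change -0.33 ± 0.16, adjusted p = 0.14), and without rescue replicate 1 this passed as a fall of 0.50 (adjusted p = 0.008). In experiment 3 it was at 90.7, 145, 113 and 100 CPM in the libraries labelled KO (anestrus), at 63.6, 365, 113 and 232 CPM at DE, at 103, 98.2, 173 and 413 CPM at PE and at 61, 73.1, 50.2 and 147 CPM at E. All stages overlapped the libraries labelled KO (anestrus), and none differed from them past the threshold.

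Lipe, hormone-sensitive lipase, which frees cholesterol and fatty acids from droplets (chromosome 7, 25379527 to 25398710), was at 62.1, 42.7 and 35.2 CPM in WT, at 55.3, 41.3 and 74.0 CPM in Fshb(+/-) and at 31.6, 30.9 and 30.8 CPM in Fshb(-/-). The Fshb(-/-) libraries were nearly equal and below all others. Lipe fell by 0.87 ± 0.24 on the log2 scale against Fshb(+/-) (edgeR, adjusted p = 0.039), a call lost without any 1 library but Fshb(+/-) replicate 2, and was at -0.59 ± 0.24 against WT (adjusted p = 0.17). In experiment 2 it was at 27.5, 31.3, 23.4 and 26.2 CPM in Fshb(-/-) and at 33.6, 30.3, 58.6 and 60.4 CPM in the rescue. Rescue replicate 2 fell within the Fshb(-/-) range, and the rise of 0.75 ± 0.24 just passed (adjusted p = 0.049), to be lost without any 1 of 6 of the 8 libraries.

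In experiment 3, Lipe was at 19.8, 38.9, 24.9 and 23.6 CPM in the libraries labelled KO (anestrus), at 44.3, 89.2, 44.3 and 83.5 CPM at DE, at 39.9, 50.7, 51.6 and 116 CPM at PE and at 51.9, 58.4, 38.5 and 62.9 CPM at E. DE and PE did not overlap the libraries labelled KO (anestrus), and E overlapped them through replicate 3. The rises were 1.28 ± 0.35 at DE (edgeR, adjusted p = 0.018) and 1.26 ± 0.35 at PE (adjusted p = 0.014), while E was at 0.98 ± 0.34 (adjusted p = 0.064) and passed without E replicate 3 or replicate 2 of the libraries labelled KO (anestrus). The DE call was lost without DE replicate 4 or replicate 3 of the libraries labelled KO (anestrus) (highest adjusted p = 0.051). Exons of Lipe share 918 bases with an antisense transcript, 4732471J01Rik, which had 1 to 24 counts per library, and the strand setting of the counting is not given in the sources used here.

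Pnpla2, adipose triglyceride lipase, which takes the first step in triglyceride breakdown (chromosome 7, 141455198 to 141460743), passed in no comparison of all the libraries. It was at 90.0, 84.8 and 84.9 CPM in WT, at 114, 87.0 and 97.9 CPM in Fshb(+/-) and at 86.4, 87.2 and 75.0 CPM in Fshb(-/-) of experiment 1. Fshb(-/-) overlapped Fshb(+/-), with a log2 fold change of -0.26 ± 0.11 (edgeR, adjusted p = 0.14). The libraries of experiment 2 had it at 56.1, 55.4, 57.3 and 57.0 CPM in Fshb(-/-) and at 58.6, 63.9, 60.7 and 66.9 CPM in the rescue. These groups did not overlap, yet the difference was small, at 0.15 ± 0.05 on the log2 scale (edgeR, adjusted p = 0.054, and past the threshold without rescue replicate 1). The libraries of experiment 3 had 50.2, 75.5, 53.4 and 50.3 CPM when labelled KO (anestrus), 73.3, 147, 63 and 107 CPM at DE, 61.4, 72, 86.4 and 158 CPM at PE and 62.7, 65, 57.7 and 98.1 CPM at E. The groups overlapped at each stage (lowest adjusted p = 0.085, at DE).

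**Figure D2:**
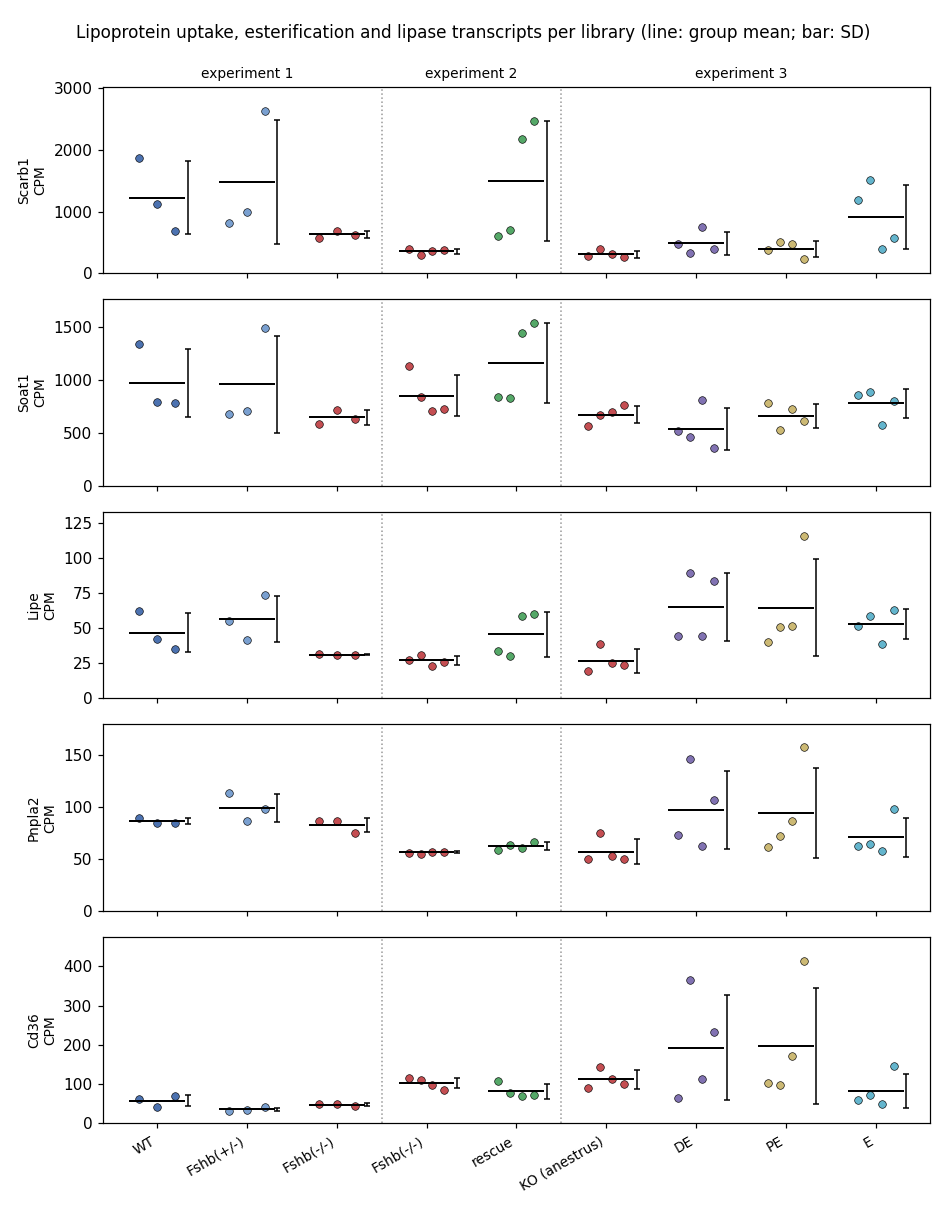
Level of Scarb1, Soat1, Lipe, Pnpla2 and Cd36 transcripts (CPM, linear axes from 0) in the 33 libraries, 1 point a library, with a line at the group mean and a bar of 1 SD. Scarb1 reaches 2179 and 2468 CPM in rescue replicates 3 and 4 and stays at or below 685 CPM in every library labelled Fshb(-/-) or KO (anestrus).

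Counted over the 10 members, 2 were lower and 0 higher in Fshb(-/-) than in WT, where 7.87% of 17223 genes tested passed (3.34% lower and 4.53% higher). Both were perilipins, Plin2 and Plin4. By position alone, 5 members (Plin2, Plin4, Lipe, Scarb1 and Soat1) had all Fshb(-/-) libraries below all WT libraries, as did 17.0% of the genes tested. The median log2 fold change was -0.59 over the members and -0.01 over all genes tested. Between Fshb(+/-) and WT 0 members passed, against a background of 0.0871%, all of it higher. At an unadjusted p under 0.05 there were 3 members (10.4% of genes), and DESeq2 called 1 (Cd36). In position, Plin5 was above WT (6.11% of genes) and Cd36 below (9.19%). Fshb(-/-) against Fshb(+/-) gave 4 lower (Plin2, Plin4, Plin5 and Lipe) and 0 higher, with a background of 17.0% (7.90% lower and 9.10% higher). There 5 members, these 4 and Scarb1, lay wholly below (18.6% of genes) and Cd36 wholly above (19.1%).

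In the rescue 5 members were higher than in Fshb(-/-) and 0 lower, where 31.9% of 16871 genes passed (15.8% higher and 16.2% lower). These were Plin2, Plin4, Plin5, Lipe and Scarb1, and the median over the members was 0.60 against 0.00 over all genes. Those without overlap were also 5, with Pnpla2 in place of Lipe (16.8% of genes). At DE 4 members were higher than in the libraries labelled KO (anestrus) and 0 lower, with a background of 25.1% of 16944 genes (13.5% higher and 11.6% lower). At PE 5 were higher and 0 lower, with a background of 33.8% (17.5% higher and 16.3% lower), and at E 3 were higher and 0 lower, with 18.0% (8.98% in each direction). In each of these 3 comparisons 4 members lay wholly above, beside 10.8%, 20.8% and 12.5% of genes at DE, PE and E. The member medians were 0.78, 0.78 and 0.40 against 0.01 over all genes in each.

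Without DE replicate 3 and E replicate 3, Pnpla2 (0.97, adjusted p = 0.031) rose and Soat1 (-0.55, adjusted p = 0.013) fell at DE as well, where 35.8% of genes then passed. Plin2 and Lipe joined the calls at E, where 20.7% then passed. Of the 23 calls over the comparisons above, 10 held without each library in turn. All 23 were also made by DESeq2. It called 7.30%, 12.2% and 19.9% of genes for Fshb(-/-) against WT, Fshb(-/-) against Fshb(+/-) and the rescue. Its shares were 16.7%, 20.5% and 12.6% at DE, PE and E, and 1.11% for Fshb(+/-) against WT. Here and below, DESeq2 shares are over genes not filtered on low counts (here 32591, 29950 and 31223 in experiments 1, 2 and 3). They are therefore not comparable with the edgeR shares: in the rescue DESeq2 called 5972 genes and edgeR 5390.

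**Figure D3:**
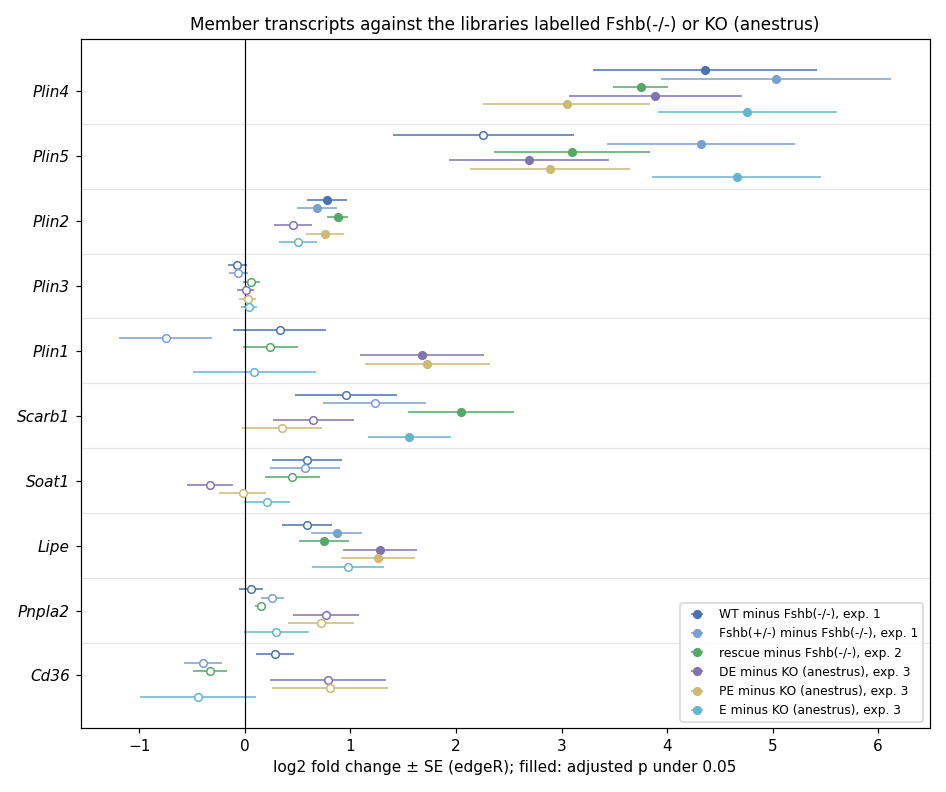
Log2 fold change of each member with its standard error in 6 comparisons, each drawn as the other group minus the libraries labelled Fshb(-/-) or KO (anestrus), with filled points past an adjusted p of 0.05. Plin4 lies at or above 3.05 in all 6, Plin3 lies near 0, and Plin1 passes only at DE and PE.

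Whether the members rose by another amount with the transgene than in WT was tested as a difference of differences over experiments 1 and 2, which share no libraries. Over all genes 0.153% of 18255 passed (0.0493% higher and 0.104% lower), and 0 of the 10 members did. At an unadjusted p under 0.05 there was 1 member (6.64% of genes), and DESeq2 called 0 (0.393% of genes). That 1 was Cd36, at -0.63 ± 0.25 on the log2 scale (edgeR, adjusted p = 0.64). Scarb1 was at 1.08 ± 0.72 (adjusted p = 0.86) and Plin4 at -0.62 ± 1.0 (adjusted p = 0.95).

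Between the stages 0 members passed in any of the 3 comparisons by edgeR, and 0.0% of genes did. At an unadjusted p under 0.05 there were 0 members for PE against DE (2.40% of genes), 5 for E against PE (18.7%) and 5 for DE against E (10.6%), and DESeq2 called 1 member, Scarb1, for E against PE (1.16% of genes), 0 for DE against E (0.032%) and 0 for PE against DE. Only Plin5 separated 2 stages without overlap, DE lying below E (1.84% of genes). The means of Scarb1 were 488 ± 190 CPM at DE, 396 ± 123 CPM at PE and 917 ± 519 CPM at E (SD, n = 4 each). Without DE replicate 3 and E replicate 3, Scarb1 was higher at E than at PE by 1.45 on the log2 scale (edgeR, adjusted p = 0.0058), where 15.5% of genes passed. DE against E then gave -1.44 for Scarb1 (adjusted p = 0.011) and -0.92 for Soat1 (adjusted p = 0.0015), where 16.0% of genes passed. Plin5 passed for E against PE without PE replicate 2, its highest PE library, at 2.99 (adjusted p = 0.029).

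Markers of fat cells moved with some members in experiment 3. The summed level of 10 adipocyte markers that are not members, Adipoq among them, was 10.3 to 664 CPM in the libraries labelled KO (anestrus), 283 to 3152 CPM at DE, 616 to 3387 CPM at PE and 89.7 to 899 CPM at E, and 4.55 to 146 CPM over experiments 1 and 2. Of these markers 1 of 10 rose at DE, 3 of 10 at PE and 0 of 10 at E, where 13.5%, 17.5% and 8.98% of all genes rose. All 10 oviduct markers rose at DE and at PE, and 0 of 10 did at E. Both counts vary with the libraries and the test. With 1 library left out, 0 to 8 adipocyte markers rose at DE and 0 to 9 at PE, and 1 to 10 oviduct markers at DE and 5 to 10 at PE. DESeq2 called 5 adipocyte markers higher at DE and 9 at PE, and 3 oviduct markers at E. In experiment 1, Lep was at 0 in all WT and all Fshb(-/-) libraries and Adig in all WT libraries. In a fit added after seeing the data, with the mean log2(CPM + 1) of the adipocyte markers as a covariate beside the groups, 2 members had a slope past the threshold, Plin1 at 0.57 ± 0.08 per unit (edgeR, adjusted p = 0.0044) and Pnpla2 at 0.29 ± 0.05 (adjusted p = 0.026), where 0.277% of genes did. Cd36 was at 0.51 ± 0.10 (adjusted p = 0.056), Lipe at 0.30 ± 0.06 (adjusted p = 0.084), Plin4 at 0.08 ± 0.24 (adjusted p = 0.99) and Plin5 at -0.45 ± 0.19 (adjusted p = 0.85).

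With that covariate the Plin1 differences turned to -0.13 at DE and -0.10 at PE, and neither passed. Lipe at DE (0.41, adjusted p = 0.38) and PE (0.30, adjusted p = 0.56), Plin2 at PE (0.44, adjusted p = 0.22) and Plin4 at PE (2.87, adjusted p = 0.098) no longer passed. Plin4 at DE (3.77, adjusted p = 0.027) and E (4.81, adjusted p = 0.0031), Plin5 at all 3 stages (3.79, 4.08 and 4.90, highest adjusted p = 0.013) and Scarb1 at E (1.62, adjusted p = 0.0091) still passed. The covariate and the groups move together, so each such fit has less to test with, and 7.09% of genes passed at DE, 7.50% at PE and 15.2% at E. Lipe newly passed at E (0.75, adjusted p = 0.035).

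**Figure D4:**
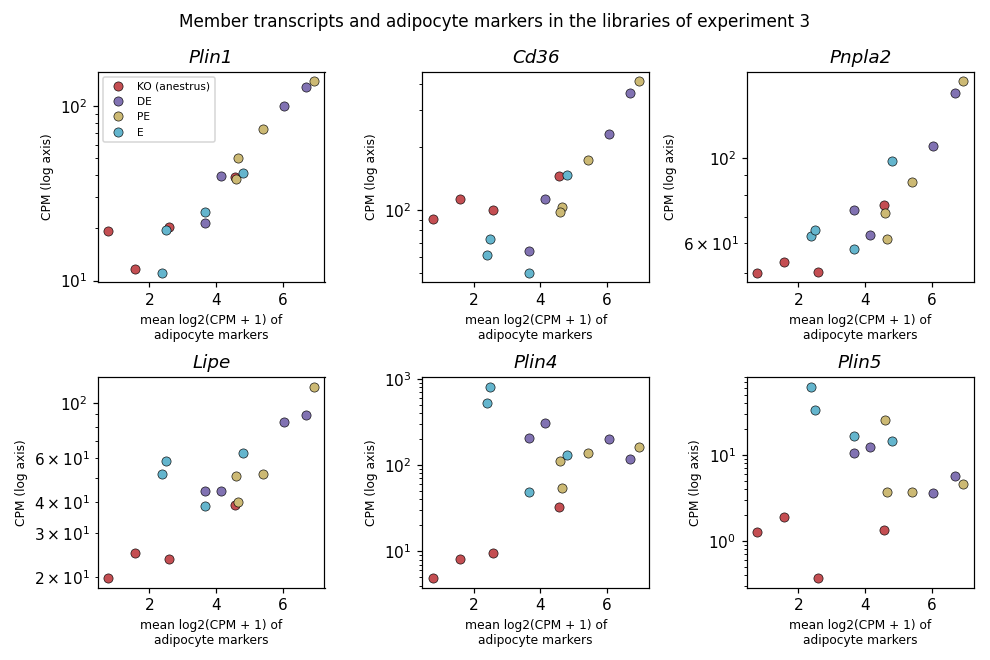
Level of 6 member transcripts (CPM, log axes) against the mean log2(CPM + 1) of 10 adipocyte markers in the 16 libraries of experiment 3, colored by group. Plin1, Cd36 and Pnpla2 are highest in the libraries richest in adipocyte markers, PE replicate 4 and DE replicate 2, whereas Plin5 is highest, at 62 CPM, in a library of E with few.

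Luteal markers were also lower in the groups where Plin4 and Plin5 were low. Their summed level was 1659 to 3095 CPM over all libraries labelled Fshb(-/-) or KO (anestrus), 3382 to 12337 CPM in WT, 7549 to 17247 CPM in Fshb(+/-), 6383 to 19696 CPM in the rescue, 2771 to 7061 CPM at DE, 1947 to 6506 CPM at PE and 3773 to 15974 CPM at E. Of 8 luteal markers tested, 7 rose and 0 fell in the rescue, 5 rose at DE, 5 at PE and 6 at E. Over all genes 15.8% rose and 16.2% fell in the rescue, and 13.5%, 17.5% and 8.98% rose at DE, PE and E. In Fshb(-/-) 4.53% of all genes were higher and 3.34% lower than in WT, and 7.90% were lower than in Fshb(+/-). There 1 luteal marker was lower than in WT (0 to 5 with 1 library left out, 4 by DESeq2). The luteal markers lower than in Fshb(+/-) were 4 (0 to 4, and 6 by DESeq2). In the rescue the count was 4 to 8 with 1 library left out, and at DE 3 to 5. In the rescue, at DE and at E, the libraries stood in the same order by luteal sum and by Plin4. At E, replicate 3 was lowest in both (3773 and 48.2 CPM) and replicate 2 highest (15974 and 809 CPM). In the other groups the orders differed. PE replicate 4 had the lowest luteal sum at PE, 1947 CPM, and the highest Plin4, 161 CPM. Fshb(+/-) replicate 2 had the lowest luteal sum of its group, 7549 CPM, and the highest Plin4, 563 CPM. Sfrp5, a 9th marker, was at 0 in all Fshb(-/-) libraries of experiment 1. Other cell types moved too: in the rescue 9 of 10 endothelial markers rose, all 10 oocyte markers fell, 6 of 10 granulosa markers rose and 1 fell, 2 of 8 theca and interstitial markers rose and 5 fell, 4 of 10 macrophage markers rose and 3 fell, and 0 of 6 oviduct markers and 1 of 7 adipocyte markers (a fall) passed. In Fshb(-/-) against WT, 9 of 10 oocyte markers were higher (3 to 5 with 1 library left out), 7 of 10 endothelial markers lower (2 to 5), 4 of 8 theca and interstitial markers higher and 1 lower, 1 of 10 granulosa markers higher and 4 lower, and 1 of 10 macrophage markers higher. Against the libraries labelled KO (anestrus), all 10 oocyte markers were lower at DE and PE and 4 at E (1 to 5 with 1 library left out, 9 by DESeq2). Endothelial markers were higher by count at the stages, 7 at DE (3 to 8), 3 at PE (1 to 4) and 5 at E (5 to 7). Of 8 theca and interstitial markers 4, 4 and 5 were lower, and 1 was higher at each stage. At PE 4 of 10 macrophage markers were higher (4 to 6) and 0 lower. Macrophage counts were 2 higher and 1 lower at DE, and 1 higher and 1 lower at E. Of 10 granulosa markers, 3 were higher and 1 lower at each stage. The part of these cell types in the members' differences was not tested.

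Among other genes of droplets and lipolysis, 3 of 19 tested rose and 5 fell in the rescue, where 15.8% of all genes rose and 16.2% fell. With 1 library left out, 0 to 4 rose and 4 to 5 fell. Abhd5, the coactivator of adipose triglyceride lipase, rose by 0.42 ± 0.11 on the log2 scale (edgeR, adjusted p = 0.016) and Mgll, which finishes triglyceride breakdown, by 0.52 ± 0.16 (adjusted p = 0.033). Ces1d, a carboxylesterase, fell from 63.2 ± 5.31 to 2.78 ± 1.19 CPM (-4.49 ± 0.25, adjusted p = 1.8e-05), and Hsd17b11, a droplet-bound dehydrogenase, fell by 0.40 ± 0.06 (adjusted p = 0.0012). In Fshb(-/-) 0 of 18 passed against WT by edgeR and 2 were lower by DESeq2, and 3 were lower than in Fshb(+/-) (0 to 2 with 1 library left out). Over all genes, edgeR called 3.34% lower than in WT and 7.90% lower than in Fshb(+/-). At DE 4 of 21 rose and 1 fell (13.5% of all genes rose), and at PE 6 rose and 0 fell (17.5% of all genes rose), with Mgll (1.66 ± 0.38 and 1.73 ± 0.38) and Dgat2, which makes triglyceride (2.67 ± 0.70 and 2.74 ± 0.70), leading both. At E 1 rose and 1 fell (8.98% of all genes in each direction). With 1 library left out 1 to 7 rose at DE, 4 to 7 at PE and 0 to 2 at E. DESeq2 called 8, 9 and 3 higher, where it called 16.7%, 20.5% and 12.6% of unfiltered genes in either direction. The list's medians lay between -0.08 and 0.25 in these comparisons, beside -0.02 to 0.01 over all genes.

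Of the genes of lipoprotein receptors and cholesterol handling, 7 of 27 rose and 4 fell in the rescue (4 to 9 and 3 to 5 with 1 library left out). There 15.8% of all genes rose and 16.2% fell. Abcg1, which exports cholesterol, rose by 1.49 ± 0.16 on the log2 scale (edgeR, adjusted p = 0.00022), and Lipa, the lysosomal lipase that frees cholesterol from lipoprotein, by 0.74 ± 0.09 (adjusted p = 0.00049). Apoa1, the main protein of high-density lipoprotein, fell by 1.90 ± 0.15 (adjusted p = 7e-05) and the receptor Lrp1 by 0.57 ± 0.07 (adjusted p = 0.00032). In Fshb(-/-) against WT, 2 of 27 were higher, Pdzk1, an adaptor that binds Scarb1 in liver (1.14 ± 0.21, adjusted p = 0.014), and Apoa1 (1.78 ± 0.41, adjusted p = 0.038), and 3 were lower, Vldlr (-0.95 ± 0.18, adjusted p = 0.018) and Abcg1 (-1.18 ± 0.27, adjusted p = 0.032) among them. With 1 library left out 0 to 2 were higher and 0 to 2 lower than in WT. Over all genes, 4.53% were higher and 3.34% lower than in WT with all libraries. Against Fshb(+/-) 2 were higher and 7 lower (1 to 3 and 1 to 7), beside 9.10% and 7.90% of all genes. At the stages, 6 of 26 rose and 4 fell at DE, 7 rose and 5 fell at PE and 5 rose and 3 fell at E, beside 13.5%, 17.5% and 8.98% of all genes that rose. The counts that rose were 2 to 6, 4 to 7 and 2 to 7 with 1 library left out. Lrp1 fell at each stage, by 0.83 ± 0.10, 0.92 ± 0.10 and 0.65 ± 0.10. The medians of this list were -0.07 in Fshb(-/-) against WT, -0.48 against Fshb(+/-), 0.06 in the rescue and 0.28 to 0.34 at the stages.

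Of 20 genes of fatty acid uptake and use, 9 rose and 3 fell in the rescue (6 to 8 and 2 to 3 with 1 library left out). There 15.8% of all genes rose and 16.2% fell. Angptl4, which inhibits lipoprotein lipase, rose by 0.61 ± 0.05 (edgeR, adjusted p = 3.4e-05) and the fatty acid transporter Slc27a4 by 0.55 ± 0.06 (adjusted p = 0.00031). Fabp3, a fatty acid binding protein, fell from 196 ± 17.5 to 41.4 ± 8.03 CPM (-2.24 ± 0.14, adjusted p = 2.1e-05), and Ppargc1a, a coactivator of oxidative genes, fell by 1.15 ± 0.19 (adjusted p = 0.0019). In Fshb(-/-) against WT 1 passed by edgeR, the transporter Slc27a6, at -1.62 ± 0.31 (adjusted p = 0.018), with 0 to 2 lower when 1 library was left out. Over all genes, 3.34% were lower than in WT with all libraries. Against Fshb(+/-) 2 were higher and 5 lower (1 to 2 and 1 to 6), beside 9.10% and 7.90% of all genes. At the stages, 4 rose at DE (1 to 7 with 1 library left out), 6 at PE (1 to 7) and 6 at E (5 to 6). Over all genes 13.5%, 17.5% and 8.98% rose there. At each stage 2 of the list fell, Fabp3 (-2.19 ± 0.36, -1.76 ± 0.35 and -2.58 ± 0.36) and Ppara, a receptor for fatty acids (-1.07 ± 0.26, -0.98 ± 0.26 and -1.14 ± 0.26). Fabp3 was also the only gene of the 3 lists to pass in the difference of differences, at -1.56 ± 0.27 (adjusted p = 0.029). The medians of this list were -0.18 in Fshb(-/-) against WT, -0.26 against Fshb(+/-), 0.22 in the rescue and 0.33 to 0.38 at the stages. Between Fshb(+/-) and WT edgeR made 0 calls in the 3 lists and DESeq2 made 1 in the lipoprotein list and 1 in the fatty acid list. Between stages edgeR also made 0, whereas for E against PE DESeq2 called 2 droplet genes, 1 lipoprotein gene and 1 fatty acid gene, and edgeR up to 4 droplet genes with 1 library left out.

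Per kilobase of exon, Scarb1 and Soat1 were the most abundant, with medians over the 33 libraries of 68 and 74.5 CPM per kilobase. Plin2 followed at 27.3, with Plin3, Pnpla2 and Cd36 at 23.9 each and Plin4 at 20.2. Lipe at 7.02, Plin1 at 6.23 and Plin5 at 2.12 CPM per kilobase were the scarcest. Plin4 changed place by group: its mean was 65.6 CPM per kilobase at E, ranking 3rd among the 10 there, and 1.57 in Fshb(-/-) of experiment 1, ranking 9th. Ordered by group mean, Plin4 was highest at E (379 ± 355 CPM), then in Fshb(+/-) (298 ± 230), DE (208 ± 78.6), WT (187 ± 205), the rescue (135 ± 33.9) and PE (116 ± 45.9), and the values of neighbours in this order overlapped. The libraries labelled KO (anestrus) (13.9 ± 12.8 CPM) and both groups labelled Fshb(-/-) came last. The experiments differed in laboratory, kit and depth, and their levels were scaled apart. In this order, differences between experiments and between groups cannot be told apart, so it is a description.

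Over the 33 libraries, with each gene's log2(CPM + 1) centred on the mean of its experiment, Plin4 and Plin5 correlated at a Pearson r of 0.80, Plin5 and Scarb1 at 0.79 and Plin4 and Scarb1 at 0.72. Lipe and Pnpla2 correlated at 0.81 and Plin1 and Cd36 at 0.76, whereas Plin5 and Cd36 were at -0.44. The libraries share group, depth and cell makeup, so these values describe likeness only. Of 12031 genes with a mean of at least 5 CPM, those most like each member were Lpl (0.88) and Pck1 (0.80) for Plin1, Itgb2 (0.91) and Myo1f (0.90) for Plin2, Psmd10 (0.70) and Bckdha (0.69) for Plin3, Pdlim4 (0.95) and Mbp (0.94) for Plin4, and Avpi1 (0.95) and Hs6st1 (0.95) for Plin5. Ghitm (0.95) was among those most like Scarb1. For Soat1 they were Hacd3 (0.80) and Msmo1 (0.79), for Cd36 Tmem120a (0.88) and Cdo1 (0.82), for Lipe Acsl1 (0.90) and Crat (0.90), and for Pnpla2 Acsl1 (0.90) and Gstz1 (0.89).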

How the data were processed

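For 33 ovary libraries the authors deposited 1 table of estimated counts (expected counts), in which 10.5% to 20.1% of a library's values are not whole. Salmon, DESeq2 and the build GRCm38 are named, per the submitters' processing notes. Annotation, versions, settings and strand were not given in the sources used here. Counts were rounded to whole numbers. Symbols and coordinates came from GENCODE on GRCm38: of 54347 identifiers, 53307 matched with their version and 54094 without it, Plin4 among the latter. No replicates agreed within sampling noise (chi-square over its degrees of freedom 5.34 to 67.7).

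The 3 experiments were fitted separately, all groups of each in 1 model, in R 4.3.3 with edgeR 4.0.16 (filterByExpr by group, TMM factors, robust quasi-likelihood test, Benjamini-Hochberg adjustment over all genes tested, threshold 0.05); only the difference of differences used experiments 1 and 2 in 1 fit. CPM values use TMM-scaled totals within an experiment. Groups come from the labels. Same-numbered libraries were checked for pairing: 7 of 37 pairs correlated above 0.1 (range -0.75 to 0.24), so numbers do not pair the samples. Alternatives were DESeq2 1.42.0, median-of-ratios factors, no filter, the replicate block, each library left out in turn, DE replicate 3 and E replicate 3 left out together, and an adipocyte covariate added after seeing the data. The procedure was run on simulated data in which every gene had the same spread. The SD within a group reached 110% of the mean for Plin4 and 114% for Plin5. The simulation therefore does not measure how well such members are called.

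All 10 members are named. Of the lists of droplet and lipolysis genes, lipoprotein and cholesterol genes, and fatty acid genes, at most 2 higher and 2 lower genes with the smallest p are named; the markers of 8 cell types are counted and summed. One gene among those most like a member is not reported here. The members and lists were chosen with earlier results of these data known.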

Additional observations from a re-analysis of the deposited data

Results flagged for a closer look

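In 60 groups of 4 libraries (10 members, 6 groups), 4 had 1 library whose gap to the nearest other library took a share of the group's range past the 95% critical value of Dixon's test, which chance gives in about 1 group in 20. In the libraries labelled KO (anestrus), replicate 2 had 32.9 CPM of Plin4 where the others had 4.91 to 9.68 CPM. The same library had 75.5 CPM of Pnpla2 where the others had 50.2 to 53.4 CPM, and its adipocyte markers summed to 664 CPM against 10.3 to 118 CPM in the others. Plin5 was at 25.1 CPM in PE replicate 2 and at 3.67 to 4.55 CPM in the other PE libraries. Lipe was at 116 CPM in PE replicate 4 and at 39.9 to 51.6 CPM in the other PE libraries, and the adipocyte markers of that library summed to 3387 CPM against 616 to 1093 CPM. The causes were not tested.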

How the results depend on the processing

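Of 1420 log2 fold changes of members under alternatives, 1316 kept their side of the threshold, 72 no longer passed, 30 newly passed and 2 that had passed turned negative, both of Plin1 with the adipocyte covariate (-0.13 at DE and -0.10 at PE). Among the 1316, 71 changed sign without passing in either fit. With the covariate these include Cd36 at DE (from 0.79 to -0.93) and PE (from 0.81 to -1.0), Pnpla2 at DE (from 0.77 to -0.10) and PE (from 0.72 to -0.23) and Plin1 at E (from 0.09 to -0.52). With that covariate 1201 genes passed at DE and 1270 at PE, with 2 and 1 members. By DESeq2, 2380 genes passed for Fshb(-/-) against WT, 362 for Fshb(+/-) against WT, 363 for E against PE, 10 for DE against E and 135 in the difference of differences, with 1 member each for Fshb(+/-) against WT and E against PE and 5 for E against KO (anestrus). Without a filter, 1 member passed for Fshb(-/-) against WT, 1 against Fshb(+/-), 2 in the rescue and 2 at DE. More genes are then tested, and the share of all genes that passed in these fits is not given here. Without DE replicate 3 and E replicate 3, 2656 genes and 1 member passed for E against PE, 2750 genes and 2 members for DE against E, and 5 members for E against KO (anestrus).

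With the replicate number as a block, 0 members and 911 genes passed for Fshb(-/-) against WT and 7 genes for Fshb(+/-) against WT. The block moved no other count of calls by over 1.5 times, and these libraries share only a number.

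Leaving out each library in turn, genes passing ranged from 456 to 1031 for Fshb(-/-) against WT, 9 to 14 for Fshb(+/-) against WT, 1362 to 2581 for Fshb(-/-) against Fshb(+/-), 2422 to 5787 at DE, 1920 to 2779 at E, 0 to 1847 for E against PE (1847 without E replicate 3, 279 without PE replicate 2 and 1 without PE replicate 4), 0 to 1039 for DE against E (1039 without E replicate 3) and 18 to 30 in the difference of differences. Members passing ranged from 0 to 2 against WT, 0 to 3 against Fshb(+/-), 2 to 7 in the rescue, 2 to 6 at DE, 3 to 5 at E and 0 to 1 for E against PE. For the rescue the range of genes passing is not given here. Plin5 rested on as few as 4 counts in a library, replicate 4 of those labelled KO (anestrus). Where not stated, the cause was not tested.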
